A study of Drosophila melanogaster with 3 samples.

Results

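The genes described here encode the subunits of the proteasome of Drosophila melanogaster. The set was proposed with earlier results of these data known. Its members were taken by symbol: every protein-coding gene whose symbol starts with Prosalpha, with Prosbeta, or with Rpn or Rpt and a digit. The rule found 48 genes among 13968 protein-coding genes of the main chromosome arms. Of these, 32 are the standard subunits and 16 are paralogues, whose symbols carry a T or an R after the number of the standard subunit they resemble. The measurement was chromatin immunoprecipitation and sequencing (ChIP-seq) of Achaete (Ac). All samples formed 1 group: whole embryos of both sexes from the transgenic strain ac-GFP, aged 0 to 8 hours, in which Ac carried an eGFP tag and was pulled down with an antibody to GFP. There were 3 biological replicates, no second genotype, treatment or age, and no separated cell types, so a site used in few cells is diluted by all others. Whether the strain also kept an untagged ac gene is not given in the sources used here. Nothing in the labels ties the replicates to different egg collections, and their spread may therefore be technical.

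The proteasome degrades proteins marked with ubiquitin. Its barrel is made of outer rings of alpha subunits (Prosalpha genes), which gate the entrance, and inner rings of beta subunits (Prosbeta genes), some of which cut peptide bonds. The cap on the barrel holds a ring of Rpt ATPases, which unfold substrates and thread them into the barrel, and Rpn subunits, which bind ubiquitin, remove it or hold the cap together. The standard subunits are needed in all cells. Several fly subunits have a gene copy that is used mainly in the testis. Ac is a basic helix-loop-helix proneural protein that pairs with Daughterless (Da) and binds E-boxes.

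No proteasome gene had an Achaete peak at its start. A gene was counted as bound when the summit of a peak of the optimal list lay within 500 bp of any of its annotated starts. That list holds the 2756 regions that the authors kept after comparing the replicates, and they are the 2756 highest-ranked regions of the list called from all 3 replicates together (the pooled list, 30000 regions). Of all protein-coding genes, 9.01% were bound. Of the proteasome genes, 0 of 48 were bound. The exact Clopper-Pearson 95% interval runs from 0% to 7.4%, and a count of 0 allows up to 6.25%. Proteasome genes are short, with a median length of 1382 bp, and short genes were bound less often, with 2.36% in the decile of the shortest genes and 17.9% in that of the longest. Genes of the same length deciles would have given 3.17 bound genes, or 6.61%. That share is below the upper end of the interval and above the share that a count of 0 allows. Genes matched also on the presence of another gene's start within 500 bp would have given 3.92, or 8.17%, which is above both bounds. The counts were 0 of 32 standard subunits against 2.19 for genes of matched length, and 0 of 16 paralogues against 0.98. Whether the share of the proteasome genes lies below that of comparable genes therefore depends on the matching and on the bound used, and no test was run.

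The starts of 2 of the genes lie in duplicated sequence. The start windows of Prosalpha1 and its copy Prosalpha1R, 500 bp to each side, consist entirely of sequence that occurs more than once in the genome, as every 36-base and every 50-base word in them is repeated. Neither gene had a region in any list. The sources used here do not say how reads with several matching places were treated, and its part in this was not tested. In the other 46 genes at most 9.73% of the 36-base words were repeated. Without this pair, 0 of 46 were bound, with an upper bound of 7.71%.

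A promoter element of housekeeping genes was found in standard subunits and in no paralogue. The DRE (TATCGATA, the element bound by the DREF protein and common in promoters of housekeeping genes) was searched on both strands from 250 bp before to 50 bp after the 5′-most start. It was present in 12 of 32 standard subunits (37.5%, interval 21.1% to 56.3%), in 0 of 16 paralogues (interval 0% to 20.6%) and in 9.36% of all protein-coding genes. The interval of the standard subunits lies above the share of all genes, while that of the paralogues includes it. Not every standard subunit with a paralogue had a DRE in this window. Prosalpha1, Prosalpha4, Prosbeta4, Prosbeta5, Rpt3, Rpt4 and Rpt6 had none, so these did not differ from their paralogues in it. The stretches below are shown because they set 2 standard subunits, both with a DRE, beside their paralogues. Each runs 5′ to 3′ on the strand of the gene and ends at the base before the start. Each was read from the release 6 (dm6) RefSeq genome, and stops after 250 bases or at an annotated exon. Capitals mark the DRE.
Prosalpha6, chr2L:10221217-10221350, + strand: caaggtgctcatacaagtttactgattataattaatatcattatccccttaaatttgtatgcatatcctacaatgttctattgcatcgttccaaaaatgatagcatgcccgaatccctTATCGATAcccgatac
Prosalpha6T, chr2L:13231789-13232038, + strand: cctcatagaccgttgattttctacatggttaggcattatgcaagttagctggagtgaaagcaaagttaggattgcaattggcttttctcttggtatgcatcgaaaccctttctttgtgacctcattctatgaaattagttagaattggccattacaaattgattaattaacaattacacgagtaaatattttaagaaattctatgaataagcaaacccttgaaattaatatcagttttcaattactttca
Prosbeta2, chr3L:14999701-14999950, + strand: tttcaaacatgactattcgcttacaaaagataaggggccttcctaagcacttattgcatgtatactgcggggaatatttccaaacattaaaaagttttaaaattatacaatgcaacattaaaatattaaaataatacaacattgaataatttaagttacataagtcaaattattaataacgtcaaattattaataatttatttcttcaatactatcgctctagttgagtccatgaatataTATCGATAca
Prosbeta2R2, chr3R:5219529-5219656, - strand: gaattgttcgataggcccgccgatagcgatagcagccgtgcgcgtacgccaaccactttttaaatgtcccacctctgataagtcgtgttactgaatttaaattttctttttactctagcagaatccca
Prosbeta2R1, chrX:5808704-5808953, + strand: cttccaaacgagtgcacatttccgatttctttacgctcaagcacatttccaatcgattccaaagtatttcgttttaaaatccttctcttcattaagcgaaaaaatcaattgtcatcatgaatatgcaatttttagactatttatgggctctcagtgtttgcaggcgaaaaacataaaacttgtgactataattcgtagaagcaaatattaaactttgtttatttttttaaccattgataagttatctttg

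In Prosalpha6 the first base of the DRE lay 16 bp before the start, and in Prosbeta2 it lay 10 bp before it. The letters TATCGATA occur nowhere in the stretches of Prosalpha6T, Prosbeta2R2 or Prosbeta2R1. The other standard subunits with a DRE were Prosalpha3, Prosalpha5, Prosbeta1, Prosbeta6, Rpn3, Rpn7, Rpn9, Rpn12, Rpn13 and Rpt5. The E-box given for Ac with Da (GCAGCTG or GCAGGTG) was found in the promoter of only 1 proteasome gene, Prosalpha2. That is 3.12% of the standard subunits and 0% of the paralogues. Among all protein-coding genes the share was 8.7%, and among genes bound in the optimal list it was 12%. The core of the motif of the promoter factor M1BP (GGTCACAC) was in 5 of 32 standard subunits (Prosalpha2, Prosalpha4, Prosbeta3, Rpn1 and Rpn7), in 0 of 16 paralogues and in 7.69% of all genes. GAGAG repeats ran the other way, with 9.38% of standard subunits, 37.5% of paralogues and 29.7% of all genes. The site of Cnc with its Maf partner (TGACNNNGC), the factor that raises proteasome genes when the proteasome is impaired, was in 15.6% of standard subunits, 6.25% of paralogues and 8.62% of all genes. The motif of the early activator Zelda (CAGGTA, which shares the letters CAGGT with the E-box GCAGGTG) was in 9.38%, 6.25% and 6.24%, and the TATA box (TATAAA) in 40.6%, 31.2% and 45.8%. A match describes the letters in this window and does not show that a protein sits there. The exact intervals of the standard subunits left out the share of all genes only for the DRE and for GAGAG (1.98% to 25%). Those of the paralogues included it for every motif named here. None of these differences in share was tested.

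**Figure D1:**
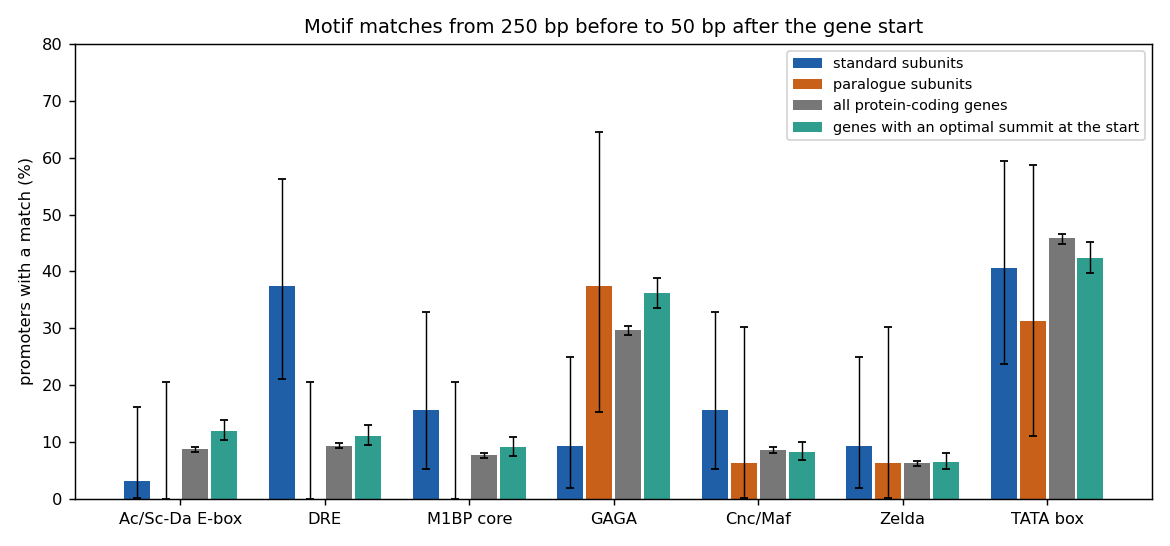
Share of promoters (%, vertical axis) with at least 1 match to each motif, for the 32 standard subunits, the 16 paralogues, all protein-coding genes and genes bound in the optimal list, with exact 95% intervals as bars. The DRE stands at 37.5% in the standard subunits and at 0% in the paralogues, while the E-box given for Ac with Da is at 3.12% and 0%. For the DRE, the interval of the paralogues, 0% to 20.6%, includes the 9.36% of all protein-coding genes.

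Below the optimal list, lower-ranked regions were found at the starts of many standard subunits. The pooled list is labelled as holding peaks and background, so a region in it need not be a peak. Of its 30000 regions, 7511 had a q value of at most 0.05. In the whole pooled list, 43.8% of all protein-coding genes had a summit within 500 bp of a start. Of the proteasome genes 22 of 48 did (45.8%), which is close to that background. The split by kind was uneven. Among standard subunits 20 of 32 had a pooled region (62.5%, interval 43.7% to 78.9%), against 12 for genes of matched length. Among paralogues 2 of 16 had one (12.5%, interval 1.55% to 38.3%), against 5.52. The interval of the standard subunits reaches down to the background and lies above the 37.4% of genes of matched length. It includes the 46.2% of genes matched on both length and a neighbouring start. That of the paralogues lies below the background but includes the 34.5% of genes of matched length. The difference between the kinds itself was not tested. Since 12 of the standard subunits have a paralogue, the kinds can also be set side by side by stem. Of these 12 standard subunits, 8 had a pooled region, and of the 20 standard subunits with no paralogue, 12 did.

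Many of these starts are shared with another gene, and that moved with the pooled regions. A start of another gene lay within 500 bp of a start of 21 of 32 standard subunits and of 3 of 16 paralogues, against 34.4% of all genes. With such a neighbour, 71.4% of standard subunits had a pooled region, and without one 45.5% did. Over all genes the shares were 60.5% and 35.1%. For paralogues they were 33.3% (1 of 3) and 7.69% (1 of 13). Genes matched on both length and neighbour would have given 14.8 standard subunits and 4.86 paralogues with a pooled region, against the 20 and 2 counted. The summit itself was within 500 bp of the neighbour's start in 14 of the 20 standard subunits, and in 8 of these it was nearer to the neighbour. These positions were not counted for other genes with a pooled region. Over the 22 proteasome genes the median distance from start to summit was 178 bp, against 147 bp over all genes with a pooled region. The summit was upstream in 12 and downstream in 10.

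**Figure D2:**
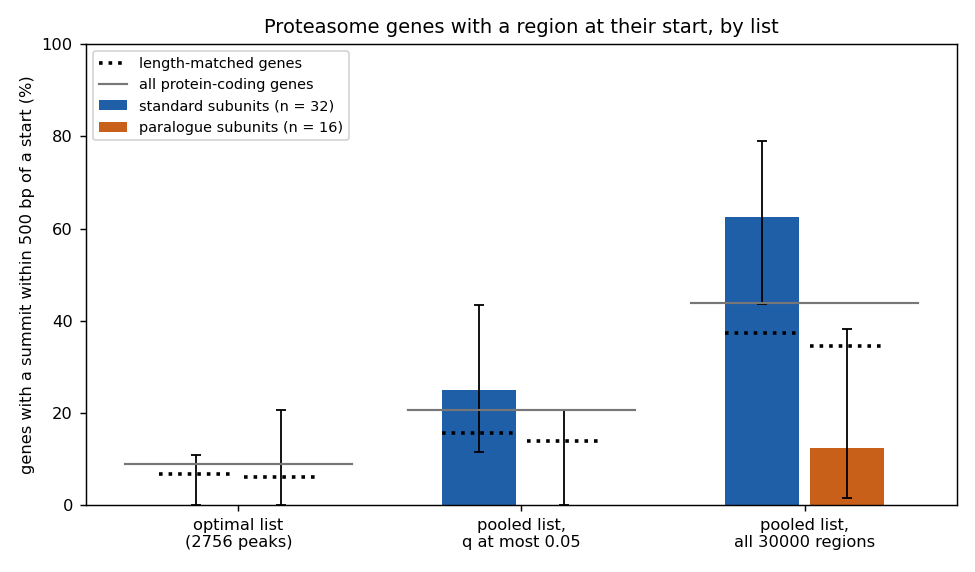
Share of genes (%, vertical axis) with a summit within 500 bp of a start in the optimal list, among pooled regions with a q value of at most 0.05 and in the whole pooled list. Bars show standard subunits and paralogues with exact 95% intervals, dotted lines the genes of matched length and grey lines all protein-coding genes. Both kinds are at 0% in the optimal list, and they stand at 62.5% and 12.5% in the whole pooled list.

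A q value of at most 0.05 in the pooled list was met at the starts of 20.7% of all protein-coding genes. Among the proteasome genes it was met at 8 of 48, all of them standard subunits, against 7.25 for genes of matched length. By role they were 1 of 7 alpha subunits (Prosalpha2), 1 of 7 beta subunits (Prosbeta5), 1 of 6 ATPases (Rpt5) and 5 of 12 Rpn subunits (Rpn3, Rpn5, Rpn6, Rpn9 and Rpn13). All 8 ranked below the end of the optimal list, at pooled ranks from 3985 to 7198. The weakest optimal peak had a signal value of 121 on the authors' scale, and the strongest of these regions, at Rpn3, had 96.1.

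In the pooled list, the role with the highest share of genes with a region was that of the Rpn subunits of the cap, but the order of the roles was not the same in each replicate. There 10 of 12 standard Rpn genes had one (83.3%, interval 51.6% to 97.9%), against 5.03 for genes of matched length and 43.8% of all genes. In the replicates the share of standard Rpn genes was 58.3%, 66.7% and 41.7%, against 36.6%, 45.4% and 43.0% of all genes. It equalled that of the Rpt genes in replicate 2, and in replicate 3 it was below that of the Rpt genes (50%) and of the alpha subunits (57.1%). A neighbouring start was present at 8 of these 12 genes. The standard Rpn genes without a pooled region were Rpn1, a large scaffold of the base of the cap, and Rpn7, of the lid. Neither had a region in any list.

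Rpn3 encodes a structural subunit of the lid of the cap and had the highest-ranked pooled region of the proteasome genes. Its gene lies at chr2L:19051790-19053681 on the + strand, and the summit was 13 bp upstream of a start, at rank 3985 and q = 0.00289. In the replicates the best region at its start ranked 6590, 3238 and 24649 (replicates 1, 2 and 3), with q values of 0.189, 0.000127 and 0.438. Replicate 2 was high and replicate 3 low, and only replicate 2 passed 0.05. The summit also lay 165 bp from the start of l(2)37Bb.

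Rpn5, another lid subunit, lies at chr3R:5789493-5791569 on the + strand. Its pooled summit was 191 bp upstream, at rank 4635 and q = 0.00658, and 82 bp from the start of Hat1, a histone acetyltransferase gene on the opposite strand. Its replicate ranks were 3400, 14838 and 13150, with q values of 0.0487, 0.152 and 0.161. Replicate 1 was the highest here, and it was the only proteasome start with a q of at most 0.05 in that replicate.

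Rpn6, a lid subunit that clamps cap and barrel together, lies at chr2R:14750166-14752910 on the - strand. It was the only proteasome gene with a summit among the 2756 highest-ranked regions of a replicate. Its ranks were 9737, 13665 and 2230, with q values of 0.317, 0.126 and 0.000673. The pooled summit was 23 bp downstream of a start, at rank 5430. Among all protein-coding genes, 9.11%, 8.80% and 8.64% had a start at the 2756 highest-ranked regions of replicates 1, 2 and 3, and the proteasome genes stood at 0%, 0% and 2.08%.

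Rpn9, also of the lid, lies at chr3R:23731375-23733462 on the - strand. Its pooled summit was at rank 5945 with q = 0.0228. The replicate ranks were 10687, 5928 and 7318, the narrowest spread of the genes described here one by one (mean 7980 ± 2450, SD, n = 3). The q values were 0.35, 0.00531 and 0.0398, so replicates 2 and 3 passed 0.05 and replicate 1 did not.

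Rpn13, a ubiquitin receptor at chr2R:13958545-13960404 on the - strand, had a pooled summit 427 bp upstream of its nearest start, at rank 4028 and q = 0.00286, and 156 bp from the start of CtsL1, a cathepsin gene. It ranked 13446 in replicate 1 and 2804 in replicate 2, just past the 2756 highest-ranked regions, and was not listed in replicate 3. Rpn2, the other large scaffold, fell just outside the threshold with q = 0.0517 and rank 7569. It was listed in replicate 2 only, at rank 3887. The remaining Rpn genes with a pooled region were weaker. Rpn8, the partner of the deubiquitinase, ranked 16202, Rpn11, the deubiquitinase itself, 20771, Rpn10, a ubiquitin receptor, 24854, and Rpn12, of the lid, 27401. Rpn10 was listed in no replicate.

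Among the Rpt ATPases, 4 of 6 had a pooled region (66.7%), against 2.26 for genes of matched length and 43.8% of all genes. The replicate shares were 16.7%, 66.7% and 50%. Rpt5 lies at chr3R:23752876-23754623 on the + strand, 42 bp from the start of RanBP3 on the opposite strand. Its pooled summit was 131 bp upstream at rank 5137 with q = 0.0116, and 89 bp from the start of RanBP3. The replicates gave ranks of 27276, 4601 and 5862, with q values of 0.674, 0.00141 and 0.016, so replicates 2 and 3 were high and replicate 1 near the end of its list. Rpt3 ranked 12635, and its summit was 428 bp upstream of its start but 53 bp from the start of CG11122. Rpt6 ranked 18928 and Rpt4 25906. Rpt1 had no region in any list, and Rpt2 had one in replicates 2 and 3 only.

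In the barrel, 4 of 7 beta subunits had a pooled region (57.1%), against 2.26 for genes of matched length and 43.8% of all genes. The replicate shares were 57.1%, 57.1% and 28.6%. Prosbeta5, which carries the chymotrypsin-like activity, had its summit 59 bp upstream of its start at rank 6427 with q = 0.0312, and 35 bp from the start of dgo, a planar polarity gene. The gene lies at chr2R:10819978-10821178 on the + strand. Its replicate ranks were 14684, 16569 and 4845, with replicate 3 the highest. The other genes were Prosbeta3 at rank 10809, Prosbeta1, of the caspase-like activity, at rank 11832, and Prosbeta2, of the trypsin-like activity, at rank 26344. Outside the pooled list, Prosbeta4 was listed in replicate 3 at rank 27079 and Prosbeta6 in replicate 1 at rank 12070.

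Among the alpha subunits 2 of 7 had a pooled region (28.6%), against 2.42 for genes of matched length and 43.8% of all genes. The replicate shares were 14.3%, 28.6% and 57.1%. Prosalpha2 lies at chr3R:12431321-12432556 on the + strand and has no other start within 500 bp. Its pooled summit was 210 bp upstream at rank 7198 with q = 0.044. It ranked 5586 in replicate 1 and 4462 in replicate 3, and was not listed in replicate 2. Prosalpha6 ranked 19465, with q = 0.36. Prosalpha3, Prosalpha4 and Prosalpha7 were each listed in a single replicate, and Prosalpha1 and Prosalpha5 in none.

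Of all protein-coding genes 35.9% had no region at a start in any list. Of the paralogues 10 of 16 had none, against 6.93 for genes of matched length, and their interval of 35.4% to 84.8% includes the background. Of the standard subunits 6 of 32 had none (Prosalpha1, Prosalpha5, Prosbeta7, Rpn1, Rpn7 and Rpt1), against 13, with an interval of 7.21% to 36.4% that also includes it. Genes of matched length stood at 40.6% for the standard subunits, above that interval, and at 43.3% for the paralogues, inside theirs. The 10 paralogues were Prosalpha1R, Prosalpha3T, Prosalpha4T1, Prosbeta2R1, Prosbeta4R2, Prosbeta5R1, Prosbeta5R2, Rpt3R, Rpt4R and Rpt6R. The paralogue with the highest pooled rank was Prosalpha6T, an alpha subunit gene of the male germ line. Its pooled summit was 132 bp downstream of the start, at rank 11749 and q = 0.163. It ranked 7551, 12899 and 22645 in the replicates, with q values of 0.232, 0.113 and 0.396, and passed 0.05 in none. Its standard counterpart Prosalpha6 ranked 12861 and 15701 in replicates 2 and 3 and was not listed in replicate 1. Prosbeta2R2 ranked 27622 in the pooled list, near its end, and its counterpart Prosbeta2 ranked 26344. The other 4 listed paralogues, Prosalpha4T2, Prosbeta4R1, Rpn12R and Rpn13R, were each listed in 1 replicate and not in the pooled list.

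**Figure D3:**
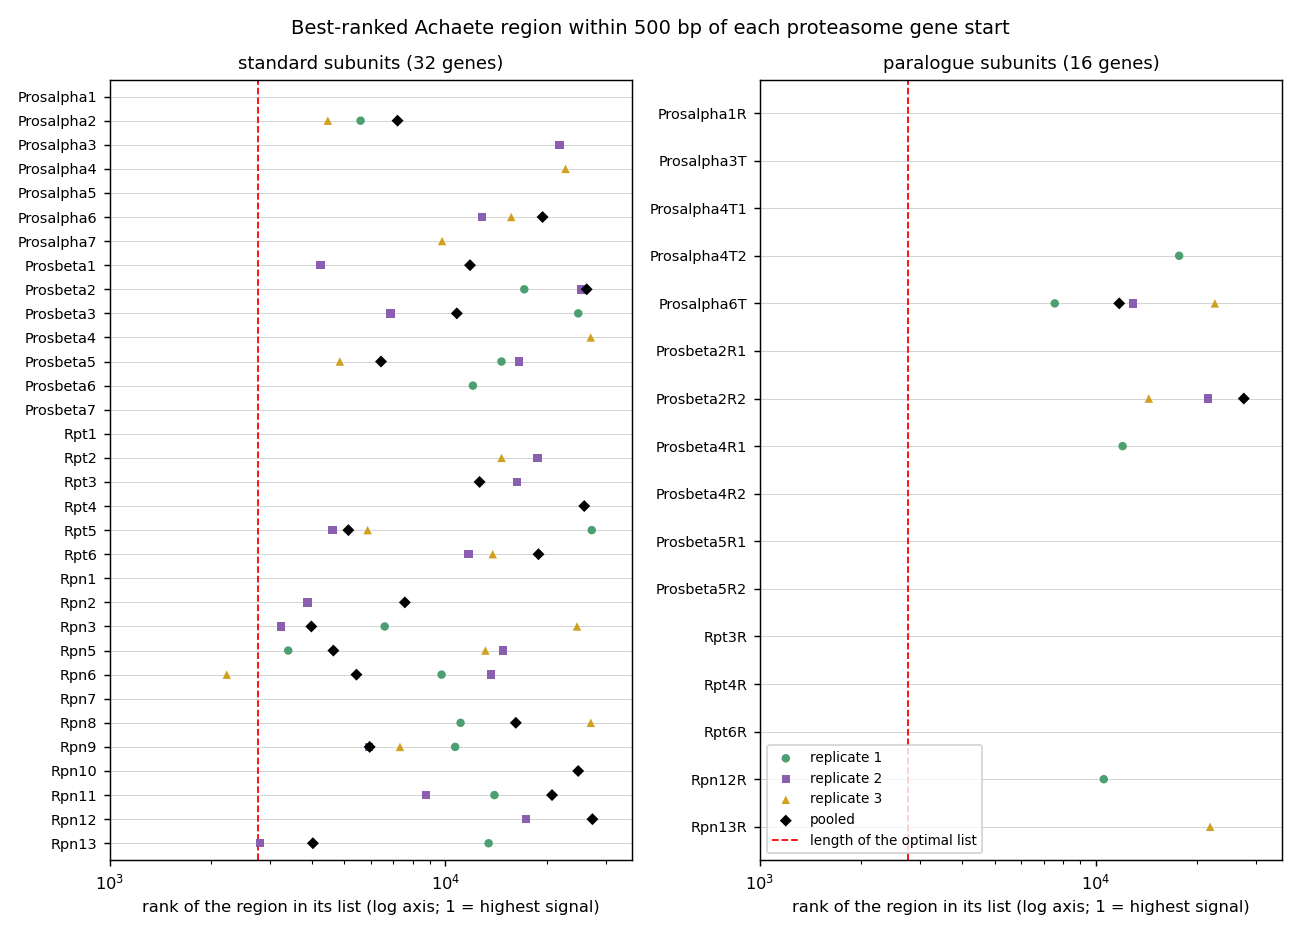
Rank of the best region within 500 bp of each gene start (horizontal log axis, 1 is the highest signal) in each replicate list and in the pooled list, with a gene on each row and no symbol where a gene was not listed. The dashed line is at rank 2756, the length of the optimal list. The only symbol to its left is Rpn6 in replicate 3, at rank 2230.

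The replicates differed in how many starts they listed, and the split by kind was seen in each. In the full replicate lists 36.6%, 45.4% and 43.0% of all protein-coding genes had a summit within 500 bp of a start in replicates 1, 2 and 3. The shares of the standard subunits were 40.6%, 56.2% and 43.8% (46.9% ± 8.27, SD, n = 3), and those of the paralogues 25%, 12.5% and 18.8% (18.8% ± 6.25). The standard subunits were above all genes in each replicate and the paralogues below. The exact intervals of the kinds overlapped in each replicate, in replicate 2 only narrowly (37.7% to 73.6% and 1.55% to 38.3%). Genes of matched length would have given 10.2, 12.5 and 11.8 standard subunits, against 13, 18 and 14 counted. For the paralogues the matched numbers were 4.83, 5.74 and 5.5, against 4, 2 and 3 counted. The difference between the kinds was not tested. In replicates 1 and 3 the standard subunits exceeded all genes by less than 1 SD of the replicates. At a q of at most 0.05 the background was 10.7%, 24.4% and 19.7%. The standard subunits stood at 3.12%, 25% and 15.6%, below that background in replicates 1 and 3, and the paralogues at 0% in each.

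Proteasome genes were listed in every replicate about as often as genes of matched length. Summits within 500 bp of a start in all 3 replicate lists were found for 21.3% of all protein-coding genes and for 7 of 48 proteasome genes, against 7.27 for genes of matched length. They were Prosbeta5, Rpn3, Rpn5, Rpn6, Rpn9, Rpt5 and Prosalpha6T. In 3 of them, Rpn5, Rpn6 and Rpn9, each replicate had its summit within 150 bp of the pooled summit. In 6 of the 22 genes with a pooled region no replicate did.

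The pooled summits at proteasome genes were searched for the same motifs within 100 bp to each side. The E-box given for Ac with Da was present at 4 of 22 (18.2%, interval 5.19% to 40.3%), Prosalpha2 and Rpn9 among them. It was present at 10.7% of the 4993 pooled summits at any gene start and at 15.2% of the 962 optimal ones, and both shares lie inside that interval. The DRE was present at 3 of 22 (13.6%, interval 2.91% to 34.9%), against 3.91% and 4.05%. The matches at 5 genes are shown with 11 bases to each side, because they place the motif relative to the region. They run 5′ to 3′ on the strand of the gene, and capitals mark the motif. The first 2 hold the E-box and the last 3 the DRE.
Prosalpha2, chr3R:12431126-12431154, + strand: gtcttgggcgaCACCTGCggcgaacccta
Rpn9, chr3R:23733208-23733236, - strand: gcccaagccccGCAGCTGttgttatcgaa
Rpn3, chr2L:19051855-19051884, + strand: accgtaaaacgTATCGATAaattgaaacgt
Rpt3, chrX:11124748-11124777, + strand: ggtactcgaacTATCGATAgttgcgtctcg
Rpt5, chr3R:23752819-23752848, + strand: atcgctgtcacTATCGATAagcgccggcga

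The E-box at Prosalpha2 lay 29 bp from the summit, 181 bp upstream of the gene start, in coding sequence of the neighbouring gene CG5245. At Rpn9 it lay 36 bp from the summit, in an intron of Rpn9. The DREs lay 92 bp (Rpn3, in its exon outside the coding sequence), 89 bp (Rpt3, between genes) and 88 bp (Rpt5, in a non-coding part of an exon of RanBP3) from the summit.

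Peaks of the optimal list did occur near proteasome genes, outside their starts. Of all protein-coding genes 19.0% had an optimal summit in the gene or within 2000 bp of either end. Of the proteasome genes 6 of 48 did, all standard subunits, against 6.59 for genes of matched length. None of these summits lay inside the proteasome gene, and 5 of 6 lay within 500 bp of the start of another gene. How often this holds for the summits near other genes was not counted. The closest to a start was 1560 bp upstream of Rpn2, at rank 2084 and 170 bp from the start of eIF2D, a translation factor gene. The strongest lay 226 bp past the end of Rpn5, at rank 396 and 84 bp from the start of Hpf1. Past the end of Prosalpha4 a summit of rank 502 was 368 bp from the start of eas, and past Rpt6 one of rank 2187 was 167 bp from the start of SLIRP1. The others lay past Prosalpha1 (rank 2553, 90 bp from phr) and Prosalpha3 (rank 2432, 646 bp from CG10543).

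Taken from whichever annotated start was closest, the median distance of a standard subunit to the nearest optimal summit was 11605 bp, with a range from 1560 bp to 70460 bp. For the paralogues it was 53370 bp, from 4004 bp to 147520 bp, and for all other protein-coding genes the median was 17000 bp. The most distant gene was Prosbeta5R2. The ranges of the kinds overlapped widely and the difference was not tested. The nearest summit lay within 500 bp of the start of some other gene for 33 of 48 proteasome genes. The same share was not counted for other genes, so this does not set the proteasome genes apart.

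**Figure D4:**
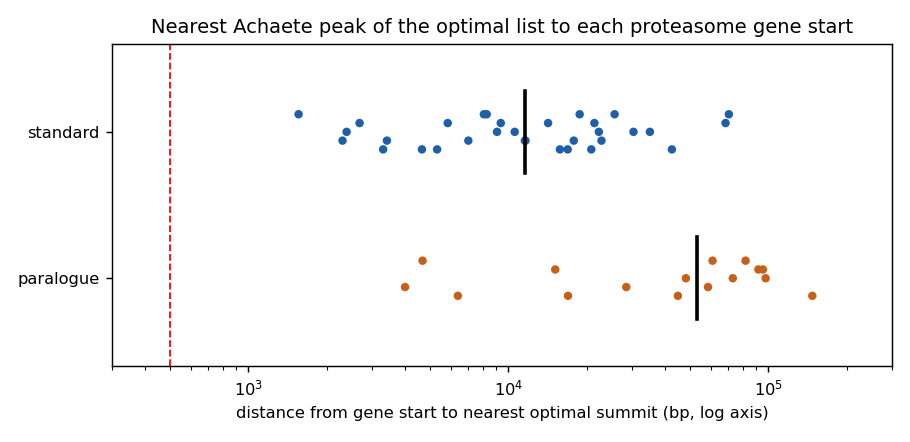
Distance in bp (horizontal log axis) from the closest annotated start of each standard subunit and paralogue to the nearest summit of the optimal list. Black bars are the medians, 11605 bp and 53370 bp, and the dashed line is the 500 bp limit, which no gene falls below.

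Ribosomal protein genes, another set of short genes used in all cells, were picked by their RpL, RpS, mRpL and mRpS symbols and gave other counts in the same lists. Of 92 cytoplasmic ribosomal protein genes 60 were bound in the optimal list (65.2%, interval 54.6% to 74.9%), against 5.79 for genes of matched length. That interval does not overlap the 0% to 7.4% of the proteasome genes, and no test was run. Of 73 mitochondrial ribosomal protein genes 8 were bound (11%, interval 4.85% to 20.5%), against 3.54 for genes of matched length. The share of all protein-coding genes was 9.01%, inside that interval. In the whole pooled list 86 of 92 and 48 of 73 had a region, against 32.6 and 22.5 for genes of matched length and 43.8% of all genes. DREs were at a similar share in cytoplasmic ribosomal protein promoters, 30.4%, and in those of the standard proteasome subunits, 37.5%. Among all protein-coding genes the DRE was at 9.36%. The E-box given for Ac with Da was at 2.17% in the cytoplasmic ribosomal protein promoters and 3.12% in the standard subunits, against 8.7% of all genes.

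Genes that work with the proteasome were read from a list of 23 regulators, assembly factors and ubiquitin genes. In the optimal list 1 of 23 was bound, against 2.12 for genes of matched length. It was RpS27A, which encodes ubiquitin fused to a ribosomal protein and is also among the ribosomal protein genes above, with its summit 47 bp upstream of the start at rank 1067. Its replicate ranks were 827, 1833 and 2132, all within the 2756 highest. In the pooled list 15 of 23 had a region, against 10.3, and 7 had a q of at most 0.05, against 4.88. The proteasome maturation factor Pomp ranked 3264, with ranks of 4149, 3829 and 3000 in the replicates, and was outside the optimal list. Its q in replicate 1 was 0.0763, above 0.05, and in replicates 2 and 3 it was 0.000127 and 0.0015. The polyubiquitin gene Ubi-p63E ranked 5843, Ubi-p5E 3455, the ubiquitin conjugating enzyme eff 4671 and the deubiquitinase Uch-L5 4697. The gene of the regulator Cnc ranked 4275. The COP9 signalosome, a complex built like the lid, had 0 of 9 genes bound and 3 of 9 with a pooled region (alien, CSN3 and CSN5), against 3.76.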

How the data were processed

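The study measured Achaete-eGFP by ChIP-seq in 3 biological replicates of whole embryos, with chromatin sonicated to 200 to 800 bp per the labels. Per the deposited notes, the authors made a list of 30000 regions from each replicate and from all replicates together, each against a control alignment not analysed here, and derived the optimal list by comparing replicate ranks. The sources used here name no peak caller, version or threshold. The signal value deposited for each region has no stated scale and served only for ranks within a list (equal values in order of position). The authors deposited a −log10 q value for each region, which was converted to q. The lists hold no read counts, so depth is unknown and intervals cover counting of genes only. Lists on dm3 were not used.

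Regions were placed on dm6 and gene starts taken from Ensembl release 115 (annotation 6.54), arms 2L, 2R, 3L, 3R, 4, X and Y. All dm6 regions lay inside chromosome ends. A gene was called when a summit lay within 500 bp of any of its starts. Numbers for matched genes came from the share called among other protein-coding genes in each of 10 length strata. Intervals are exact Clopper-Pearson at 95%, and a count of 0 allows 3 counts of the total. No test was run. Members and lists were chosen with earlier results of these data known. Every member is named in the report. Alternatives were other windows, start sets, list depths, strata and leaving out replicates. Counting was checked on simulated summits. Python 3.11.15, numpy 2.4.6, pandas 2.3.3 and scipy 1.17.1 were used. Some items are not reported here.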

Additional observations from a re-analysis of the deposited data

How the results depend on the processing

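The count of 0 bound proteasome genes, and of 0 in each kind, stayed 0 with a window of 1000 bp and with any overlap of the peak, the planned settings that could have raised it. A window of 250 bp, the 5′-most start only, the 1000 strongest peaks, leaving out each replicate in turn and leaving out Prosalpha1 and Prosalpha1R can only keep or lower a count, so their 0 says nothing about stability. Matched on the presence of a neighbouring start instead of length, the number given by other genes was 4.94 (10.3%), with both 3.92 (8.17%) and with no matching 4.34 (9.04%). The count moved with larger sets of regions or a wider search, chosen after seeing the data. All regions of the pooled list gave 22 genes (20 standard, 2 paralogues), 1.26 times the matched number. Pooled regions at q of at most 0.05 gave 8, all standard, or 1.1 times it, and summits in the gene or within 2000 bp gave 6, all standard, or 0.911 times it. The counts in the whole pooled list moved too, and the numbers for genes of matched length moved with them. Standard subunits fell from 20 to 13 with a window of 250 bp and to 8 at q of at most 0.05. The matched numbers were 12, 9.04 and 5.02, so the ratio was 1.67, 1.44 and 1.59. Paralogues went from 2 to 4 with a window of 1000 bp and to 0 at q of at most 0.05. Their matched numbers were 5.52, 7.08 and 2.23. A narrower window or a q limit can only keep or lower a count. Keeping only pooled summits with a summit within 150 bp in both remaining lists, leaving out each replicate in turn gave 5 to 9 genes, 5 to 8 standard subunits and 0 to 1 paralogues, with 4.23 to 5.99 and 1.9 to 2.69 for matched genes. The planned median rank, median distance, neighbour and motif results for bound genes have no value, since no proteasome gene was bound, and stand in the report for pooled regions instead. No paired analysis was possible because there is only 1 group.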
